A study of Rattus norvegicus with 32 samples.

Results

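The muscle acetylcholine receptor genes Chrna1, Chrnb1, Chrnd and Chrne, which encode the alpha 1, beta 1, delta and epsilon subunits, and Musk, which encodes the receptor tyrosine kinase MuSK, were followed across 4 groups of rat gastrocnemius libraries. These 5 genes of the 12901 in the deposited table were chosen by symbol from a list of endplate genes and kept because they had measured values there. The list was drawn up with earlier results of the same data in view, among them the cold response of Chrnd, so the cold values of Chrnd are given as a description with no p-value. All 5 were found, and 4 of the 5 passed the filter on low counts, Musk being the exception.

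At the neuromuscular endplate, agrin from the motor nerve binds LRP4 and activates MuSK, and rapsyn then clusters acetylcholine receptors beneath the nerve terminal. The adult receptor is a pentamer of alpha, beta, delta and epsilon subunits, whereas foetal and denervated muscle use a gamma subunit in place of epsilon. Receptor genes are transcribed mainly in the nuclei under the endplate, and electrical activity of the fibre keeps their transcription low elsewhere.

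The study asked how muscle responds to prolonged cold with and without UCP1, the proton channel of brown fat mitochondria. In chow-fed male rats of 20 weeks, 3' tags of RNA from the gastrocnemius, a calf muscle, were sequenced. The groups were control rats at room temperature (control_RT, 7 libraries), control rats after 2 weeks at 4 °C (control_4C, 7 libraries), UCP1 knockout rats at room temperature (KO_RT, 9 libraries) and UCP1 knockout rats after the same cold exposure (KO_4C, 9 libraries), 32 libraries in all. The descriptions call the controls wild-type in one place, and whether a rat gave both a room-temperature and a cold sample is unclear, so p-values measure only the spread between these samples.

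Library totals ran from 7275508 to 25846976 counts as deposited, and every count was even, so a count of 2 appears to stand for 1 read. Levels are CPM, counts scaled to each library's total over the tested genes times its TMM normalisation factor. They are not divided by transcript length, because each transcript gives tags only near its 3' end. The 8 muscle fibre markers examined, among them Acta1 and Tnnt3, summed to between 114526 and 215725 CPM over the libraries, so the defining markers of the labelled tissue were present. The targeted gene, Ucp1, was not analysed here and gives no check of genotype. KO_RT libraries are named by column, since titles and descriptions number them differently. An index of transcript loss was built as the mean log2 CPM of 219 genes that were low in the KO_RT library of column KO10. Its mean ± SD was 1.28 ± 0.52 at room temperature and 2.56 ± 0.13 after cold in control rats (n = 7 each), and 2.07 ± 1.01 and 2.48 ± 0.19 in knockout rats (n = 9 each). The index therefore moved with temperature in control rats, where the 2 groups did not overlap. The lowest values were in control_RT replicates 2 and 3 and KO_RT columns KO8 and KO10. KO10 was low by construction, since its own levels chose the genes, and this also widened the SD of KO_RT. KO8 stood at 0.92, and the next library, control_RT replicate 6, at 1.15.

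The 3 sequences below are shown to set the window of Chrnd, which had the widest difference between temperatures, beside those of Chrnb1 and Chrna1. Each is the 130 bases before the annotated start of the gene in RefSeq, assembly GRCr8, 5' to 3' on the strand of the gene, and capitals mark E-boxes (CANNTG, the site of myogenic bHLH factors) and the N-box (CCGGAA on either strand, the site of the ETS factor GABP). The windows are chr9:95310186-95310315 on the plus strand for Chrnd, chr10:55015108-55015237 on the minus strand for Chrnb1 and chr3:78877354-78877483 on the minus strand for Chrna1.
Chrnd: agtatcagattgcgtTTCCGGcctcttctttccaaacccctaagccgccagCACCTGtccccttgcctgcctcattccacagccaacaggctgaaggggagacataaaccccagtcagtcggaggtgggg
Chrnb1: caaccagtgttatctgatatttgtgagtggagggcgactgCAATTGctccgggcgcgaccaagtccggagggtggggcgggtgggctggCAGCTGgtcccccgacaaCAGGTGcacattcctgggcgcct
Chrna1: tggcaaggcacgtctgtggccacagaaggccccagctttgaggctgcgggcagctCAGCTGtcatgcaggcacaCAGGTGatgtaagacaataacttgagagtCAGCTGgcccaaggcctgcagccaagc
The Chrnd window held 1 N-box, read as TTCCGG on the gene's strand from position -115 to -110 counted back from the start, and 1 E-box, CACCTG, at -79. The windows of Chrnb1 and Chrna1 held 3 E-boxes each and no N-box. Chrne had an N-box at -54 and a CAGCTG E-box at -116, but its annotated start lies inside the span of the gene, so its window is not printed. The Musk window held E-boxes at -111 and -79. No N-box overlapped an E-box. N-box letters occurred in 9.00% of 33469 RefSeq windows of this length, E-box letters in 41.8%, and the CAGCTG form of the E-box in 6.71%. The CAGCTG form was present in the windows of Chrna1, Chrnb1, Chrne and Musk, and these letters were not in the window of Chrnd. The annotated start of Chrnd opens with ATG, so it may be the start codon rather than the start of transcription. Its positions may then not compare with those of the other windows. A match is a description of letters and was not set against binding data.

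Chrnd, the delta subunit gene, had the widest difference between temperatures of the 4 tested genes. In control_RT its level ran from 20.7 CPM, through a median of 23.8, to 33.2. In control_4C it ran from 59.1 through 67.1 to 91.6 CPM. All 7 cold libraries lay above all 7 room-temperature libraries. In knockout rats the level ran from 17.7 through 24.9 to 31.8 CPM at room temperature. After cold it ran from 61.5 through 68.4 to 112 CPM, and here too the 9 cold libraries lay above all 9 others. For this and the genes below, the share of all tested genes whose groups separate in this way is not given. The mean ± SD was 25.2 ± 5.02 CPM at room temperature and 74.3 ± 13.02 CPM after cold in control rats (n = 7 each), and 24.6 ± 4.47 and 75.3 ± 16.2 CPM in knockout rats (n = 9 each). The fitted log2 change with cold was 1.56 ± 0.14 (SE) in control rats, a 2.94-fold higher level, and 1.61 ± 0.13 in knockout rats, a 3.06-fold higher level. Without the 4 libraries of lowest loss index these changes were 1.46 and 1.53, and with the index as a covariate 1.35 and 1.56.

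Chrnd levels were not shown to differ between the genotypes at either temperature. Knockout minus control was -0.03 ± 0.13 on the log2 scale at room temperature (edgeR quasi-likelihood test, adjusted p = 0.927) and 0.02 ± 0.13 at 4 °C (adjusted p = 0.974). The 95% interval of the latter was -0.23 to 0.27. The interaction, the difference between the cold changes of the genotypes (knockout minus control), was 0.06 ± 0.19 (adjusted p = 0.935) with an interval of -0.31 to 0.42.

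**Figure D1:**
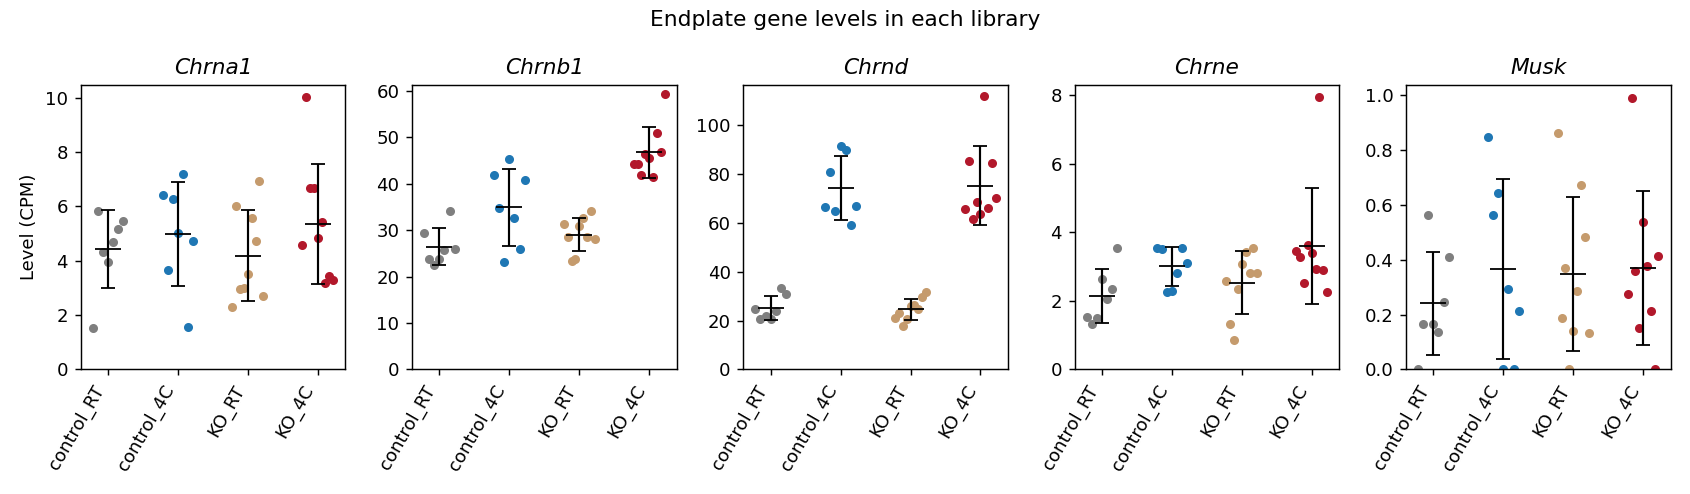
Level in CPM (y axis, linear, from 0) of each of the 5 genes in each library, by group (x axis), where points are libraries and bars are the mean ± SD. For Chrnd the points of the cold groups, from 59.1 CPM upward, lie above every room-temperature point, while for Chrna1, Chrne and Musk the groups overlap.

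Chrnb1, the beta subunit gene, was higher after cold in both genotypes, by less than Chrnd. In control_RT it ran from 22.5 through a median of 25.6 to 34.1 CPM. In control_4C it ran from 23.1 through 34.8 to 45.3 CPM, and 4 of 7 cold libraries lay above the highest room-temperature library, so the groups overlapped. In KO_RT it ran from 23.4 through 28.6 to 34.1 CPM. In KO_4C it ran from 41.5 through 45.4 to 59.4 CPM, with all 9 libraries above all 9 of KO_RT. The mean ± SD was 26.4 ± 4.05 CPM at room temperature and 34.9 ± 8.32 CPM after cold in control rats (n = 7 each), and 29.0 ± 3.64 and 46.8 ± 5.51 CPM in knockout rats (n = 9 each). The fitted log2 change was 0.40 ± 0.12 in control rats (1.32-fold, adjusted p = 0.0194) and 0.69 ± 0.11 in knockout rats (1.61-fold, adjusted p = 3.14e-05), by edgeR's quasi-likelihood test. The change in knockout rats passed the threshold under every alternative run. In control rats the adjusted p was 0.0986 without the 4 libraries of lowest loss index, 0.399 with the index as a covariate and 0.0640 with only the control groups in the fit, and it rose above 0.05, to 0.0732 at most, without control_4C replicate 1 or replicate 4. The Chrnb1 gene overlaps Zbtb4 in RefSeq, and whether counting used strand is not stated, so reads of the overlap cannot be assigned.

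Between genotypes, Chrnb1 at 4 °C was 0.42 ± 0.12 higher on the log2 scale in knockout rats, with all 9 KO_4C libraries above the control_4C mean. This did not pass the threshold in edgeR (unadjusted p = 0.000897, adjusted p = 0.0640) but did in DESeq2 (adjusted p = 0.0249). At room temperature the difference was 0.13 ± 0.12 (adjusted p = 0.616). The interaction was 0.29 ± 0.16 (adjusted p = 0.471), so the cold responses of Chrnb1 in the genotypes were not shown to differ. Averaged over both temperatures, a contrast added after the data were seen, knockout minus control was 0.28 ± 0.08 (edgeR, adjusted p = 0.0462). That call was lost when any of 22 of the 32 libraries was left out.

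Chrne and Chrna1 were measured at a few CPM, and neither passed the threshold within a genotype. Chrne, the adult-specific epsilon subunit gene, ran from 1.34 through 2.07 to 3.55 CPM in control_RT and from 2.25 through 3.11 to 3.56 in control_4C. Its level was 0.867 through 2.83 to 3.54 CPM in KO_RT and 2.27 through 3.29 to 7.95 in KO_4C. Cold and room-temperature libraries overlapped, although all 7 control_4C libraries and 7 of 9 KO_4C libraries lay above the room-temperature mean of their genotype. The log2 change of Chrne with cold was 0.49 ± 0.28 in control rats (adjusted p = 0.217) and 0.52 ± 0.24 in knockout rats (adjusted p = 0.155). Averaged over both genotypes, a contrast added after the data were seen, it was 0.50 ± 0.18 (edgeR, adjusted p = 0.0338). This averaged change was 0.35 without the 4 libraries of lowest loss index (adjusted p = 0.162) and 0.09 with the index as a covariate (adjusted p = 0.851). The call was also lost without any 1 of 8 libraries, namely control_RT replicates 1, 2 and 3, control_4C replicates 1, 2 and 6, KO_RT column KO9 and KO_4C replicate 7. The Chrne gene overlaps Gp1ba and C10h17orf107 in RefSeq.

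Chrna1 encodes the alpha subunit, which carries the main part of the acetylcholine binding site. It ran from 1.52 through 4.68 to 5.84 CPM in control_RT and from 1.57 through 5.04 to 7.20 in control_4C. In knockout rats it ran from 2.29 through 3.50 to 6.93 CPM at room temperature and from 3.18 through 4.85 to 10.04 after cold. The groups overlapped in both genotypes. Its log2 change with cold was 0.18 ± 0.29 in control rats (adjusted p = 0.705, interval -0.39 to 0.75) and 0.35 ± 0.26 in knockout rats (adjusted p = 0.406, interval -0.15 to 0.86), and a change as large as that of Chrnd lies outside both intervals. Averaged over both genotypes it was 0.27 ± 0.19 (adjusted p = 0.315).

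Musk was near the limit of detection, with 0 to 12 counts per library and 5 libraries at 0. Its mean ± SD was 0.241 ± 0.188 CPM at room temperature and 0.366 ± 0.327 CPM after cold in control rats (n = 7 each), and 0.348 ± 0.280 and 0.368 ± 0.281 CPM in knockout rats (n = 9 each). A library at 0 allows a level of up to 0.408 to 0.825 CPM, taking 3 reads after halving as the floor, and this covers counting error only. These floors and the pooled values below use plain library totals, without the TMM factor. Pooled over each group, the halved counts gave 0.221 CPM in control_RT (95% Poisson interval 0.110 to 0.395), 0.392 in control_4C (0.232 to 0.620), 0.309 in KO_RT (0.186 to 0.482) and 0.376 in KO_4C (0.238 to 0.563). With no filter on low counts the log2 change with cold was 0.63 ± 0.70 in control rats (edgeR, adjusted p = 0.593) and 0.16 ± 0.60 in knockout rats (adjusted p = 0.910). A cold change of Musk was not detectable at this depth.

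Chrnb1 passed an adjusted p of 0.05 in edgeR for cold in control rats. Read against all genes, 20.7% of 11594 tested genes did so (12.4% higher, 8.28% lower). It also passed for cold in knockout rats, against 13.8% of genes (7.49% higher, 6.28% lower). Chrna1 and Chrne passed in neither, and Chrnd was left without a test in both. For cold averaged over both genotypes, in which 31.4% of genes passed, Chrnb1 and Chrne did so, Chrnd being left without a test. No member passed for knockout against control at room temperature (2.61% of genes), and the numbers at an unadjusted p under 0.05 and in DESeq2 were 0 and 0. None passed at 4 °C (0.0518% of genes), where Chrnb1 alone had an unadjusted p under 0.05 and alone passed in DESeq2. None passed for the interaction (0.0259% of genes), with 0 at an unadjusted p under 0.05 and 0 in DESeq2. Chrnb1 alone passed for knockout averaged over both temperatures (4.27% of genes). The median log2 change of all tested genes was 0.03 for cold in control rats and 0.01 in knockout rats.

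**Figure D2:**
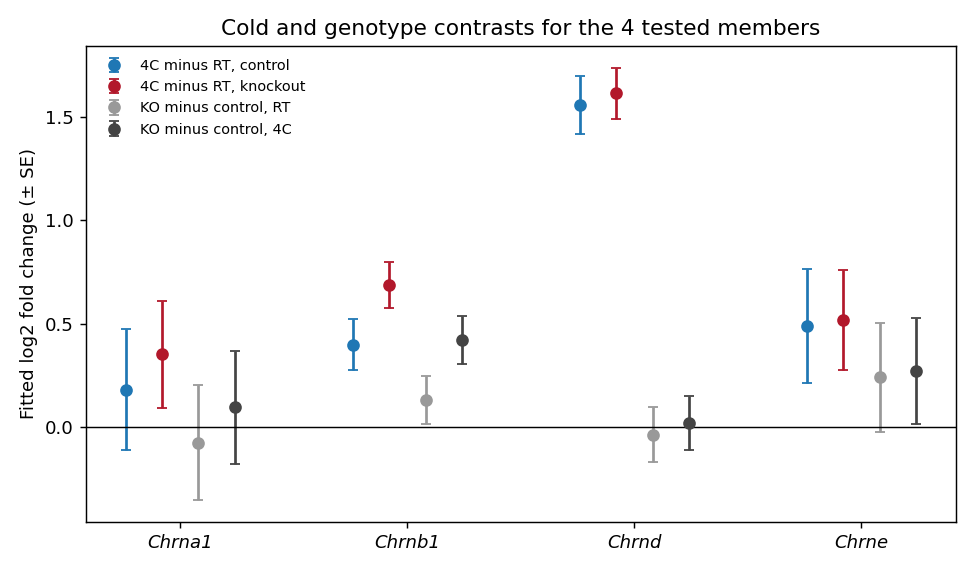
Fitted log2 change ± SE (y axis, linear) of the 4 tested genes (x axis) in the cold contrasts of each genotype and the genotype contrasts at each temperature. Chrnd stands at 1.56 and 1.61 for cold and at -0.03 and 0.02 for genotype, and Chrnb1 at 0.40 and 0.69 for cold.

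The order of the 2 abundant subunit genes changed with temperature. Chrnd and Chrnb1 lay above Chrna1 and Chrne in all 32 libraries, a comparison of tag levels that also depends on how well each annotated 3' end covers its tags. At room temperature Chrnd exceeded Chrnb1 in 1 of 7 control and 1 of 9 knockout libraries. After cold it exceeded Chrnb1 in 7 of 7 and 9 of 9. The Chrnd to Chrnb1 ratio, taken within a library and so free of scaling between libraries, had a geometric mean of 0.947 at room temperature and 2.16 after cold in control rats, and of 0.841 and 1.59 in knockout rats. On the log2 scale the ratio rose by 1.19 in control rats, from a range of -0.25 to 0.26 to one of 0.67 to 1.49, and by 0.92 in knockout rats, from -0.58 to 0.18 to 0.24 to 1.43. Neither pair of ranges overlapped. These ratios use the cold values of Chrnd and are given with no test.

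**Figure D3:**
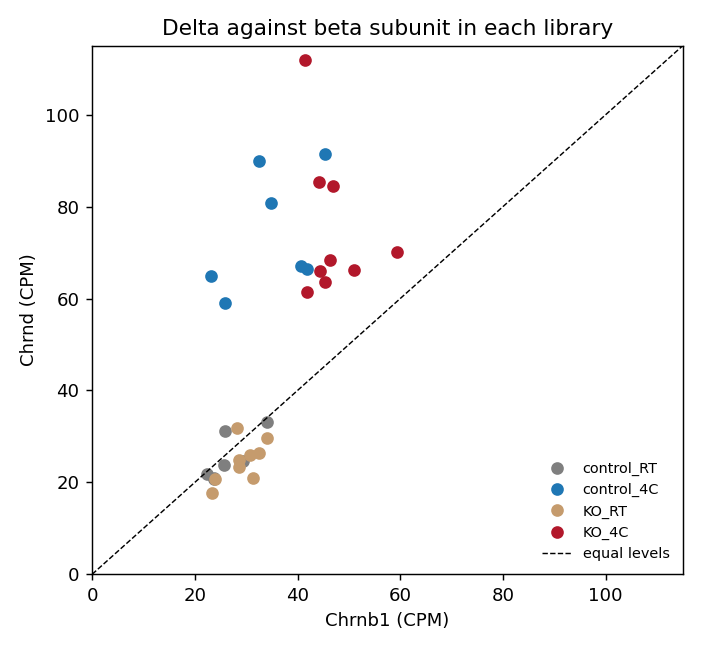
Chrnd level (y axis, CPM) against Chrnb1 level (x axis, CPM) in each of the 32 libraries, both axes linear from 0, with a dashed line of equal levels. All 16 cold libraries lie above the line, and of the 16 room-temperature libraries 1 of 7 control and 1 of 9 knockout libraries do.

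The low-count subunits gave less even ratios. Against Chrna1, the log2 ratio of Chrnd was 1.42 higher after cold in control rats and 1.25 higher in knockout rats, and against Chrne 1.01 and 1.08 higher. With Chrna1 as reference, 3 of 7 control and 6 of 9 knockout cold libraries lay above every room-temperature library of their genotype. With Chrne as reference these numbers were 7 of 7 and 5 of 9. In the exact permutation tests of the other ratios, Chrnb1 to Chrna1 differed between temperatures by 0.24 in control and 0.34 in knockout rats, and Chrne to Chrna1 by 0.41 and 0.17 (two-sided, adjusted p = 0.673 for each of the 4). A change of Chrnb1 or Chrne relative to Chrna1 was therefore not shown. Between libraries, Chrna1 varied by 32.5% to 41.2% of its mean within a group, and Chrnb1 by 11.8% to 23.9%.

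Within groups the members did not track each other closely. Of the 10 member pairs correlated over the 32 libraries after removal of group means, 0 passed an adjusted p of 0.05 by Pearson's or Spearman's coefficient (permutation test, 100000 resamples), while Chrna1 with Musk and Chrnb1 with Chrnd had unadjusted Pearson p under 0.05. For Chrnb1 with Chrnd, r was 0.392 (permutation p = 0.0300, adjusted 0.150) and rho 0.468 (permutation p = 0.0107, adjusted 0.107), and r was 0.327 without the 2 libraries farthest from the median. For Chrna1 with Musk, r was 0.479 (permutation p = 0.00975, adjusted 0.0975) and rho 0.358 (adjusted permutation p = 0.201), with r = 0.297 without the 2 farthest libraries. These points share the library and its depth.

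Inside groups, Chrne and Chrnb1 passed an adjusted p of 0.05 against the transcript-loss index by rank correlation, and no member did so by Pearson's coefficient. The share of all tested genes that would pass is not given, so a trait particular to these genes is not shown. Chrne had r = 0.548 with the index (permutation p = 0.0144, adjusted over the 5 members 0.0721) and rho = 0.5004 (adjusted permutation p = 0.0497), and r was 0.402 without the 2 libraries farthest from the median. Chrnb1 had r = 0.300 (adjusted permutation p = 0.0753) and rho = 0.382 (adjusted permutation p = 0.0497), and r was 0.281 without the 2 farthest libraries. For Chrnd, r was 0.380 (adjusted permutation p = 0.0753) and 0.161 without the 2 farthest libraries. For Chrna1 and Musk, r was 0.108 and -0.226. In control rats the index and temperature cannot be told apart by these libraries beyond the covariate values given above.

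**Figure D4:**
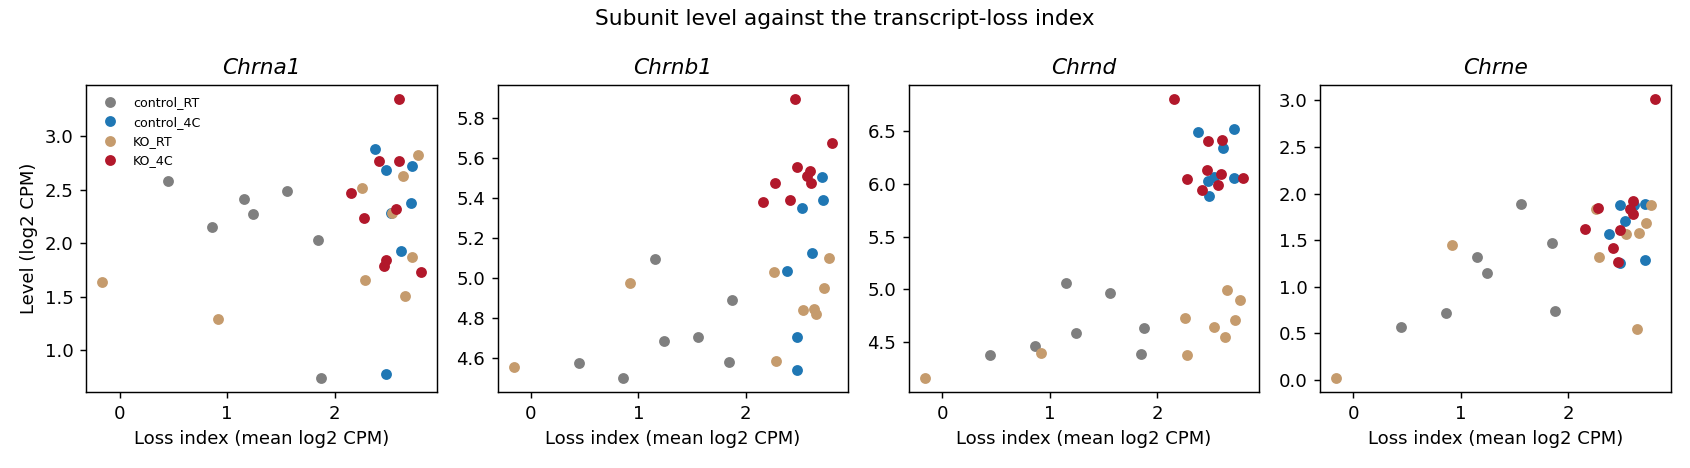
Level in log2 CPM (y axis) of the 4 tested subunit genes against the transcript-loss index (x axis, mean log2 CPM of 219 genes), 1 point per library, coloured by group. The cold libraries cluster above an index of 2, the 7 control_RT libraries lie below it, and Chrnd separates by temperature also among KO_RT and KO_4C libraries of similar index.

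The genes whose levels most resembled each member within groups were ranked by Pearson's r over the 32 libraries among 6952 genes, as a description. For Chrnd these were Acsl1, a long-chain acyl-CoA synthetase, with r = 0.685, Ldhb, the heart-type lactate dehydrogenase subunit, with 0.671, and Pla2g16, a phospholipase, with 0.633. After cold, Acsl1 rose by 0.59 in control and 0.58 in knockout rats on the log2 scale and Ldhb by 0.74 and 0.79. Pla2g16 had values of 0.33 (edgeR, adjusted p = 0.0526) and 0.37 (adjusted p = 0.0188). For Chrnb1 they were Ube2r2, a ubiquitin-conjugating enzyme (0.741), Chtop (0.736) and Zmym5 (0.735). For Chrne they were the ribosomal protein genes Rpl37a (0.768) and Rpl19 (0.767) and Net1 (0.766). For Chrna1 they were Frs2 (0.701), Dusp22 (0.579) and Ilk (0.564), and for Musk Rnd3 (0.666), Pcolce (0.661) and Rnf26 (0.624). Cold changes were not confined to the genes most like Chrnd. Ube2r2 rose by 0.65 and Net1 by 0.96 in control rats (edgeR, adjusted p = 0.00684 and 6.03e-05), with values of 0.02 and 0.25 in knockout rats. Pcolce fell by 0.56 in knockout rats (adjusted p = 0.00446).

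Upstream of the receptor, most genes of agrin, MuSK and rapsyn signalling did not pass the test. This list and those below were chosen with earlier results of these data known. Their p-values and counts are therefore no independent support. Of 12 listed genes 8 were tested, of which 1 was higher and 2 lower after cold in control rats and 0 higher and 1 lower in knockout rats. Over all tested genes, 12.4% were higher and 8.28% lower in control rats, and 7.49% and 6.28% in knockout rats. Lrp4, the agrin receptor that activates MuSK, ran from 3.17 through 6.06 to 10.1 CPM in control_RT and from 9.47 through 10.8 to 15.1 in control_4C, a narrow overlap. It rose by 0.85 ± 0.22 on the log2 scale in control rats (adjusted p = 0.00529) and had a value of 0.51 ± 0.19 in knockout rats (adjusted p = 0.0702), with an interaction adjusted p of 0.663. Cdc42, a small GTPase downstream of MuSK, fell by 0.27 in control (adjusted p = 0.0102) and 0.21 in knockout rats (adjusted p = 0.0345), and Dnaja3, a MuSK-binding protein, fell by 0.26 in control rats (adjusted p = 0.0471). Rapsn, which encodes rapsyn, had values of 0.04 and -0.24, Agrn 0.04 and -0.10, and Dok7, the cytoplasmic activator of MuSK, 0.26 and -0.25, none past the threshold. The list median was -0.01 in control and -0.12 in knockout rats, against 0.03 and 0.01 for all tested genes. Lrp4 in control rats was called without the 4 libraries of lowest loss index (0.64, adjusted p = 0.00826), and not with the index as a covariate (0.23, adjusted p = 0.605).

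In the synaptic cleft, Ache moved opposite to Chrnd. Ache encodes acetylcholinesterase, which ends the action of the transmitter. It ran from 10.3 through 12.9 to 16.1 CPM in control_RT and from 4.66 through 6.67 to 9.92 in control_4C, with no overlap. In KO_RT it ran from 10.6 through 12.7 to 15.8 CPM and in KO_4C from 4.87 through 6.38 to 8.25, again with no overlap. Its log2 change was -0.85 ± 0.14 in control rats (edgeR, adjusted p = 0.000117) and -1.03 ± 0.13 in knockout rats (adjusted p = 9.89e-07), and the call held under each alternative and with each library left out. Of 9 cleft and basal lamina genes 8 were tested, of which 1 was higher and 3 lower in control rats and 0 higher and 1 lower in knockout rats, with medians of -0.31 and -0.34. All tested genes had medians of 0.03 and 0.01. Of these, 12.4% were higher and 8.28% lower in control rats, and 7.49% and 6.28% in knockout rats. Among the laminins, which build the basal lamina, Lama4 fell by 0.83 (adjusted p = 0.0139) and Lama5 rose by 0.63 in control rats (adjusted p = 0.0175). Nid2, a nidogen, fell by 0.96 in control rats (adjusted p = 0.0468).

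Of 11 genes of the postsynaptic cytoskeleton and its sodium channels 9 were tested, and 3 were lower in control rats and 4 in knockout rats, with 0 higher in either and medians of -0.35 and -0.18. Among all tested genes 8.28% were lower in control rats and 6.28% in knockout rats, with medians of 0.03 and 0.01. Scn4a, the muscle voltage-gated sodium channel concentrated at the endplate, ran from 3.83 through 6.09 to 11.2 CPM in control_RT and from 1.60 through 3.32 to 4.37 in control_4C. It fell by 1.11 ± 0.25 on the log2 scale in control rats (adjusted p = 0.00150) and by 0.76 ± 0.22 in knockout rats (adjusted p = 0.0158). Plec, the cytoskeletal linker plectin, fell by 0.35 in control rats (adjusted p = 0.0342) and 0.63 in knockout rats (adjusted p = 8.56e-05). Dtna, a dystrobrevin, fell by 0.54 in knockout rats (adjusted p = 0.0192). Utrn, the endplate relative of dystrophin, had values of -0.0046 and -0.16 (adjusted p = 0.987 and 0.465). Without the 4 libraries of lowest loss index 3 of these genes stayed past the threshold in control rats and 1, Plec, in knockout rats, and with the index as a covariate the numbers were 0 and 2.

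Transcriptional regulators of the receptor genes were counted against the 20.7% of all genes called in control and 13.8% in knockout rats. Of 9 genes of synaptic transcription, the neuregulin and GABP pathway, 6 were tested and 0 passed in edgeR in either genotype, where 1 and 1 had an unadjusted p under 0.05 and DESeq2 called 1 and 0. Gabpa, a GABP subunit, had a value of 0.38 ± 0.14 in control rats (adjusted p = 0.0515) and 0.19 ± 0.13 in knockout rats (adjusted p = 0.348). Of 13 genes of activity-dependent transcription 11 were tested, of which 2 were higher and 1 lower in control rats and 1 higher and 1 lower in knockout rats.

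Gadd45a, which is induced in denervated muscle, ran from 13.3 through 13.9 to 17.5 CPM in control_RT and from 19.9 through 32.9 to 53.8 in control_4C. In KO_RT it ran from 9.66 through 17.6 to 19.7 CPM and in KO_4C from 26.9 through 29.4 to 45.4, so neither genotype's groups overlapped. How common such separation is among all tested genes is not given. It rose by 1.22 ± 0.16 in control rats and 1.003 ± 0.14 in knockout rats (edgeR, adjusted p = 6.13e-06 in the latter), in every alternative run. Runx1, another denervation-responsive gene, rose by 0.79 ± 0.25 in control rats (adjusted p = 0.0214) and had a value of 0.33 ± 0.22 in knockout rats (adjusted p = 0.348). That call was lost without any 1 of control_RT replicates 6 and 7 and control_4C replicates 2 and 3. Myog, the bHLH factor that drives receptor genes after denervation, had values of 0.01 ± 0.32 and 0.00 ± 0.28. Myod1, a related bHLH factor, fell by 0.86 ± 0.27 in control rats (adjusted p = 0.0235), a call lost without control_RT replicate 2 or control_4C replicate 3, without the 4 libraries of lowest loss index (-0.64, adjusted p = 0.152), with the index as a covariate (adjusted p = 0.121) and with only the control groups in the fit (adjusted p = 0.0850). With the index as a covariate, Ache and Gadd45a were the only genes of the endplate lists called in control rats. Mef2c, a muscle transcription factor, fell by 0.30 in knockout rats (adjusted p = 0.0434), and its value was -0.19 without the 4 libraries of lowest loss index (adjusted p = 0.188) and -0.24 with the index as a covariate (adjusted p = 0.121). The symbol of the gamma subunit gene, Chrng, was not in the deposited table, so its level is unknown here. Chrm3, a muscarinic receptor, was the other receptor gene tested, with values of -0.24 and 0.21 (edgeR, adjusted p = 0.600 and 0.644).

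**Figure D5:**
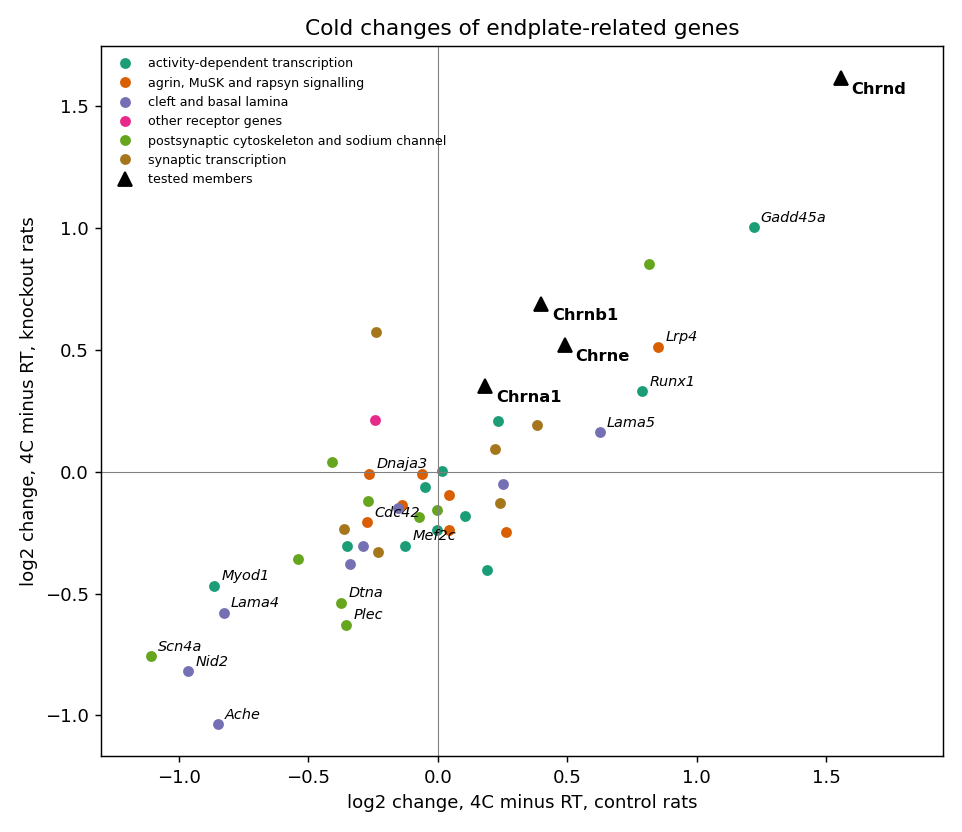
Log2 change with cold in knockout rats (y axis) against that in control rats (x axis) for each tested endplate-related gene, coloured by list, with the 4 tested receptor genes as black triangles and names on a selection of the genes past the threshold in either genotype. Chrnd lies at 1.56 and 1.61, Gadd45a at 1.22 and 1.003, and Ache at -0.85 and -1.03.

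Markers of other cell types gave these values beside the receptor genes. For comparison, 12.4% of all tested genes were higher and 8.28% lower after cold in control rats, and 7.49% and 6.28% in knockout rats. Of 8 muscle fibre markers 4 were lower after cold in control rats and 3 in knockout rats, with 0 higher. Without the 4 libraries of lowest loss index these numbers were 3 and 2, and with the index as a covariate 0 and 2. Their summed level was 150679 to 191503 CPM at room temperature and 114526 to 158479 after cold in control rats, and 147317 to 215725 and 117517 to 180864 in knockout rats. Of 6 tested markers of regenerating or embryonic fibres and satellite cells, Myh3, the embryonic myosin heavy chain, rose by 1.32 ± 0.41 in control rats (adjusted p = 0.0203) and 1.29 ± 0.36 in knockout rats (adjusted p = 0.0141), Myod1 fell in control rats, and the other 4 did not pass in either genotype. The call of Myh3 in control rats was lost without control_4C replicate 2 (adjusted p = 0.117), without the 4 libraries of lowest loss index (0.0719), with the index as a covariate (0.274) and with only the control groups in the fit (0.0611). The summed level of these 6 genes was 189 to 446 CPM at room temperature and 167 to 464 after cold in control rats, and 147 to 369 and 118 to 407 in knockout rats. Of 6 tested Schwann cell markers 0 passed in control rats (1 at an unadjusted p under 0.05, 0 in DESeq2), and in knockout rats 2 rose, among them the myelin gene Mbp (1.25, adjusted p = 0.0101). Mbp averaged 5.47 CPM in KO_RT and 13.1 in KO_4C, beside 11.1 in control_RT and 9.34 in control_4C. For knockout against control at room temperature these 6 had a median of -0.44. There 0 passed in edgeR, 3 had an unadjusted p under 0.05, and DESeq2 called 1. Summed, the 8 Schwann cell markers in the table ran from 153 to 438 CPM at room temperature and 189 to 335 after cold in control rats, and 123 to 278 and 151 to 298 in knockout rats. Of 8 motor neuron markers 2 were in the table, together between 2.02 and 7.66 CPM. The part of any of these in the receptor values was not tested. In a bulk sample, a change in the share of endplate nuclei and a change in RNA per nucleus cannot be told apart.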

How the data were processed

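Libraries were made with the Lexogen QuantSeq kit from total RNA of 32 samples, per the labels' protocols. The authors deposited a table of whole-number counts per gene and a table of normalised signal, which equals the counts over library-wide size factors (0.523 to 2.06) by the values of both deposited tables. R 3.4.3, DESeq2 1.18.1 and Rnor_6.0 are named in the submitters' processing notes; which aligner, counter and strand setting were used is not given in the sources used here. All members and lists were chosen with earlier results of these data known. Tests on the deposited counts used edgeR 4.0.16 in R 4.3.3: filterByExpr (minimum count 10, smallest group 7; 11594 of 12901 genes tested), TMM factors, 1 mean per group and a robust quasi-likelihood model of the 32 libraries, with Benjamini-Hochberg adjustment over all tested genes and a threshold of 0.05. The SE is the absolute log2 change over the square root of F, and intervals are 1.96 SE. Named genes were the 5 members, genes of the fixed lists past the threshold (at most 3 per list and contrast, with members a sentence needed; Mef2c, Dtna, Dnaja3, Cdc42 and Nid2 come under it) and the 3 genes most like each member with a mean of at least 5 CPM. Log2 CPM had a prior count of 2. Alternatives were RLE factors, no filter, counts divided by 2, DESeq2 1.42.0, only the groups compared, the replicate number as a block, the loss index as a covariate, and leaving out 4 libraries or each library. The loss index was rebuilt after the data were seen. The scripts were tested on simulated data. Some single-gene results are not reported here. No 2 libraries of a group agreed within sampling noise (smallest chi-square per degree of freedom 5.70). Columns KO8 and KO9 match the title of one KO_RT sample and the description of another, so they carry the group but no replicate number. Gene symbols are those of the deposited table; sequences, starts and overlapping genes come from RefSeq (GRCr8), in which all 5 members matched.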

Additional observations from a re-analysis of the deposited data

Results flagged for a closer look

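The level of each of the 5 genes was examined in each group, 20 checks in all, for a library whose gap to its nearest neighbour was wide for the group's range, and 2 stood out, where chance gives about 1 in 20. Chrnd was 112 CPM in KO_4C replicate 6, the deepest library, and the next highest library of the group had 85.4 CPM. Chrne was 7.95 CPM in KO_4C replicate 7, and the next highest had 3.64 CPM.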

How the results depend on the processing

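The cold changes of Chrnd in both genotypes, and of Chrnb1 in knockout rats, kept their direction under the 8 other settings and with each of the 32 libraries left out, from 1.49 to 1.63 and 1.51 to 1.65 for Chrnd and 0.64 to 0.71 for Chrnb1 with a library left out. Chrnb1 in control rats was 0.38 with only the groups compared (adjusted p = 0.0640), 0.32 without the 4 libraries of lowest loss index (adjusted p = 0.0986), 0.25 with the index as a covariate (adjusted p = 0.399) and 0.31 to 0.48 with a library left out (adjusted p = 0.00436 to 0.0732). With the index as a covariate Chrna1 and Chrne in control rats were -0.00100 and -0.16, and Chrne for knockout against control at room temperature -0.22. The members past the threshold for knockout against control at 4 °C numbered 1 in DESeq2 and with the index as a covariate, and 0 to 1 with a library left out. In each case it was Chrnb1, whose adjusted p ran from 0.0267 to 0.328 and passed without any 1 of control_RT replicates 4 and 6, control_4C replicates 1, 4 and 7 and KO_RT column KO10. The number of correlated pairs was 1, Chrna1 with Musk, without the 4 libraries (r = 0.64, adjusted permutation p = 0.0068) and with the index removed (r = 0.52, adjusted permutation p = 0.0431).

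Other signs turned among values that passed no threshold. With the mean of the other 3 subunits as reference the ratio changes of Chrnb1 were -0.38 in control and -0.14 in knockout rats, and those of Chrne -0.14 and -0.36. The r of Chrna1 with Chrne was -0.0035 with RLE factors, -0.0295 without the 4 libraries and -0.0693 with the index removed. With the last 2 settings r was 0.0340 and 0.0593 for Chrnb1 with Musk and 0.124 and 0.0832 for Chrnd with Musk. Without the 4 libraries Chrna1 had an interaction of -0.0392 and a room-temperature genotype difference of 0.13. Its genotype difference averaged over temperatures was -0.0038 with halved counts and -0.0517 with the covariate. With a library left out, Chrna1 ran from -0.0687 to 0.207 for genotype at 4 °C and -0.0734 to 0.0611 for genotype averaged. Chrnd ran from -0.0339 to 0.115 for the interaction, -0.0794 to 0.0700 for genotype at 4 °C, -0.0984 to 0.0259 at room temperature and -0.0625 to 0.0124 averaged. Chrne ran from -0.216 to 0.101 for the interaction and -0.0660 to 0.3003 for its ratio to Chrna1 in knockout rats. The averaged genotype difference of Chrnb1 was 0.27 with RLE factors (adjusted p = 0.0504), 0.28 with no filter (adjusted p = 0.0511), 0.24 without the 4 libraries (adjusted p = 0.0807) and 0.23 with the covariate (adjusted p = 0.113). The cause of these differences was not tested.

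Same-numbered samples had r of -0.224 to 0.187, and 3 of 14 matched their own number best. KO_RT numbers are uncertain and low r excludes no pair. With the replicate block Chrnb1 was 0.38 in control rats (adjusted p = 0.0354) and 0.72 in knockout rats (adjusted p = 0.00087), the interaction of Chrne was -0.12, and the block changed no other direction or call of the members. Under it Myh3 was not called in either genotype, nor Mef2c, Dtna and Scn4a in knockout rats. It gives no genotype contrast. Of the lists, calls in control rats fell from 4 to 1 in the cleft and from 3 to 0 in agrin signalling and in the cytoskeleton with the covariate, and from 3 to 1 in activity-dependent transcription; without the 4 libraries these numbers were 3, 2, 3 and 2. Of single genes, Dnaja3 and Nid2 lost their call without any 1 of 12 and 15 libraries, Mef2c of 7, Cdc42 in knockout rats and Plec in control rats of 6 each, Lama5 without control_4C replicate 2 and Dtna without KO_RT column KO10. The loss index of earlier work was not run, as its genes are not held here, and Musk, under the filter, was fitted only with no filter. Depth limits Musk, Chrne and Chrna1, at most 12, 150 and 148 counts per library.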
